A study of Homo sapiens with 15 samples.

Results

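The effect of mutating the nuclear localization sequence (NLS) of EGFR was set against the effect of inhibiting the EGFR kinase with erlotinib, gene by gene, in MDA-MB-468 cells, an established human breast cancer cell line. The members were the 12 of 15 libraries labelled shEGFR-NLS, shEGFR-WT, ERL and EGF, with 3 replicates per group, and 16445 of the 61552 genes listed had enough counts to be tested. In the line experiment, endogenous EGFR was knocked down with an IPTG-inducible lentiviral shRNA against its 3′-UTR and GFP-tagged EGFR was introduced, either wildtype (WT) or with 2 arginines and 1 lysine of the NLS changed to aspartic acid (ΔNLS). In the drug experiment, cells kept without serum for 12 h were given 10 ng/mL EGF, alone (EGF) or with 15 μM erlotinib (erlotinib), for 12 h. The study treated the lines with EGF as well, at a dose and time not given in the sources used here. Each line is 1 line, and nothing in the labels says that replicates came from separate cultures, so p-values measure only the spread between these libraries, which may be technical. The ΔNLS effect is the log2 fold change of ΔNLS vs. WT, the erlotinib effect is that of erlotinib vs. EGF, and the interaction is the first minus the second.

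EGFR is a receptor tyrosine kinase that binds EGF at the cell surface and signals through the RAS-ERK and PI3K-AKT pathways, and erlotinib occupies the ATP site of its kinase domain. The receptor can also reach the nucleus, where it has been described as a co-regulator of transcription, and its NLS lies in the juxtamembrane region just inside the membrane. A mutation of the NLS and a kinase inhibitor target different activities of the same protein, and the interaction asks for which genes the consequences differ.

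EGFR, the targeted gene (chromosome 7, 55019017 to 55211628, GRCh38), was present in every library. Its level was 5000, 4295 and 5065 CPM in the EGF libraries, 4605, 5068 and 4641 CPM with erlotinib, 1451, 1170 and 1474 CPM in WT, and 1730, 1781 and 1781 CPM in ΔNLS, where CPM is the count scaled to sequencing depth with edgeR's TMM factors. The EGF and erlotinib libraries overlapped, while both lines lay below all 6 drug libraries and ΔNLS lay above WT. EGFR rose by 0.37 on the log2 scale in ΔNLS vs. WT (SE 0.101, edgeR's quasi-likelihood test, adjusted p = 0.00707), a call that was lost without WT replicate 2 (adjusted p = 0.0587), and its erlotinib effect was -0.00 (SE 0.1, adjusted p = 0.976). The interaction of 0.37 (adjusted p = 0.0366) missed the threshold when any of 8 libraries was left out, with adjusted p between 0.0524 and 0.105. Counts on EGFR did not separate the introduced from the endogenous transcript. Among its partner receptors, ERBB2 rose 1.92-fold with erlotinib, from 47.6 to 57.7 CPM in EGF to 93.8 to 111 CPM, and ERBB3 rose by 0.48 on the log2 scale. Neither was called in ΔNLS vs. WT (0.25 and -0.19), and ERBB4 had at most 2 counts in a library.

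Library totals ran from 22915676 to 35900649 counts, and mitochondrial genes took 2.24% to 3.06% of them. Replicates of a group always differed beyond counting noise, the chi-square over its degrees of freedom being 2.60 to 22.3. EPCAM, KRT8, KRT18 and KRT19 were abundant in all 12 libraries and the progesterone receptor PGR had 0 counts. Of 20 markers of immune and stromal cells, 5 passed the filter (CD14, ITGAM, PECAM1, VWF and CDH5), CD3D, MS4A1, NCR1, KLRK1 and DCN had 0 counts, PTPRC had at most 7 counts, and the 20 together made up 17.8 to 53 CPM. CD14, a myeloid marker that epithelial lines can also express, was higher in both effects (0.42 and 1.33), though its ΔNLS call was lost without WT replicate 1 or 3 (adjusted p = 0.0658 and 0.0575). VWF rose with erlotinib (2.38) and CDH5 in ΔNLS (1.28). The part of other cells in the results was not tested beyond these levels, and in bulk RNA fewer cells of a type and less RNA per cell cannot be told apart. Counting ignored strand, and HLA-B, HMGCS1, PLAU, DUSP6 and VIM share 47.3%, 37.7%, 31%, 28.6% and 24.6% of their exon bases with exons of another gene, so part of their reads is uncertain.

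Both perturbations changed many genes, and the 2 sets of changes had no common direction across the transcriptome. edgeR called 5787 genes in ΔNLS vs. WT (35.2% of those tested), 2890 higher (17.6%) and 2897 lower (17.6%). It called 7890 genes in erlotinib vs. EGF (48.0%), 4070 higher (24.7%) and 3820 lower (23.2%). The interaction was called for 7571 genes (46.0%), 3822 with a more positive ΔNLS effect (23.2%) and 3749 with a more negative one (22.8%). Calls with a change over 1 on the log2 scale numbered 1171 for ΔNLS (7.12%), 1931 for erlotinib (11.7%) and 2831 for the interaction (17.2%). The comparisons share no library, and across the 16445 genes Pearson's r between both effects was -0.01 and Spearman's rho was -0.09, given as a description because genes are not independent replicates. Scaled by library totals in place of TMM, the median erlotinib effect moved from 0.01 to 0.12 and the median ΔNLS effect from 0.02 to 0.08, and 65.6% of erlotinib calls and 60.8% of ΔNLS calls were then higher, against 51.6% and 49.9%.

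A gene called in both comparisons more often moved oppositely than alike. Of the 3284 such genes (20% of those tested), which were 56.8% of the ΔNLS calls and 41.6% of the erlotinib calls, 1975 had opposite signs (12% of genes tested) and 1309 the same sign (7.96%). The opposite genes divided into 1016 lower in ΔNLS and higher with erlotinib (6.18%) and 959 higher in ΔNLS and lower with erlotinib (5.83%), and the alike genes into 706 lower in both (4.29%) and 603 higher in both (3.67%). All 1975 opposite genes were also called in the interaction, as were 393 of the alike genes (2.39% of genes tested), in which the size of the change differed. The opposite genes were 60.1% of genes called in both, between 57.0% and 64.1% when any of the 12 libraries was left out, 56.2% when scaled by library totals and 56.4% with offsets for GC content and transcript length, an alternative chosen after seeing the data. The interaction moved with GC content, its median going from -0.25 in the 3285 genes of lowest GC to 0.26 in the 3285 of highest. The plot of the ΔNLS effect against the erlotinib effect shows the 4 quadrants that these genes fill.

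**Figure D1:**
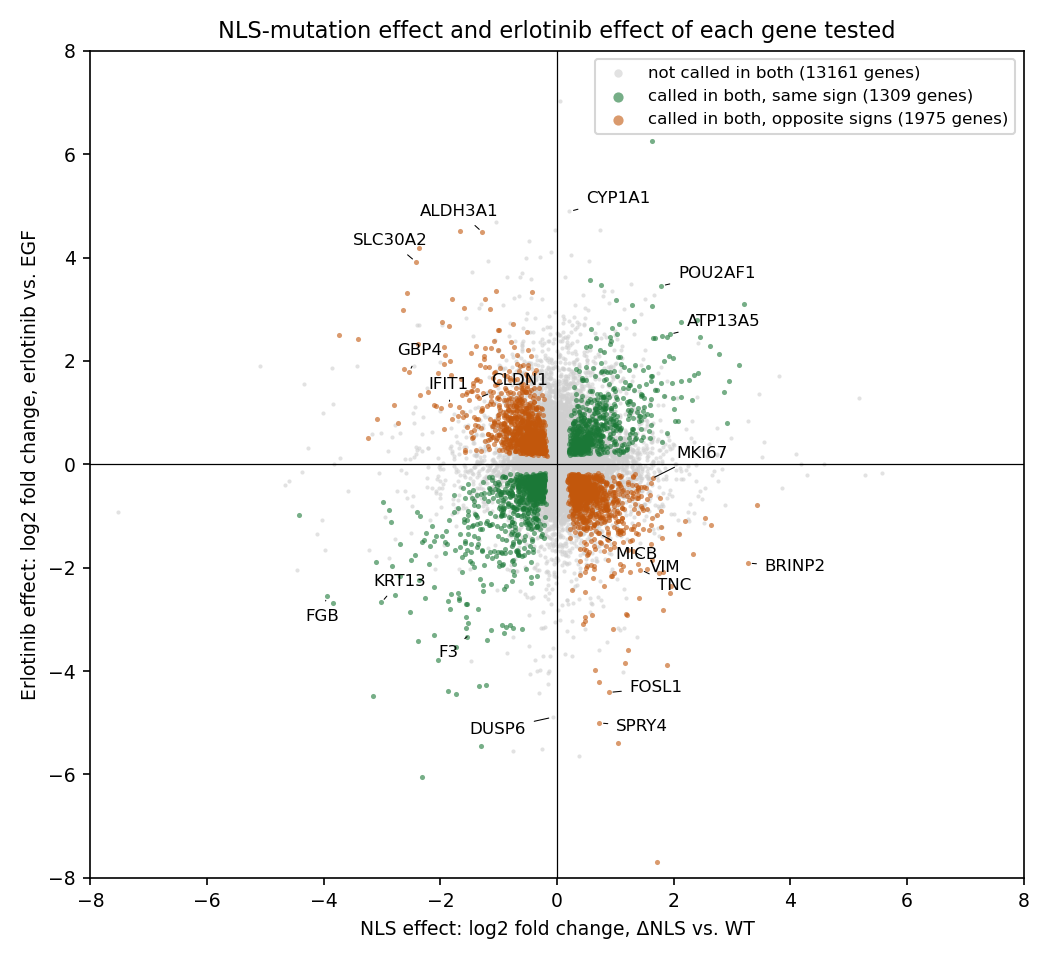
Each point is 1 of the 16445 genes tested, with the ΔNLS effect (log2 fold change, ΔNLS vs. WT) on the horizontal and the erlotinib effect (log2 fold change, erlotinib vs. EGF) on the vertical axis. Green points mark the 1309 genes called in both with the same sign and orange points the 1975 called in both with opposite signs, and all 4 quadrants are filled, with no diagonal trend (Pearson's r = -0.01).

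The starting levels of the 2 experiments were set beside the calls, as a description. Of the 1016 genes lower in ΔNLS and higher with erlotinib, 966 (95.1%) had a higher mean in WT than in EGF, and of the 959 with the reverse pattern only 81 (8.45%) did, against 50.6% of all genes tested. The mean of ΔNLS lay between those of EGF and WT for 635 (62.5%) and 558 (58.2%) of these genes and for 43.9% of all genes. Genes lower in both were above EGF in WT in 495 of 706 cases (70.1%) and genes higher in both in 222 of 603 (36.8%). The WT and EGF libraries enter the calls as well, so these shares are not independent of them. Choosing genes called lower than WT and higher than EGF itself favours genes with WT above EGF, so nothing is concluded from the shares. In a principal component analysis of the 500 most variable genes, the first component (64.2% of variance) ordered the groups as erlotinib (-31.9 to -30.9), EGF (-15.7 to -13.0), ΔNLS (8.95 to 10.6) and WT (34.8 to 36.7). The knockdown and the GFP construct differ between WT and EGF, the EGF dose and time of the lines are not given, and their parts in these differences cannot be told apart.

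Lists of genes with known functions showed which processes lay in which quadrant. Among 33 lists, interferon-stimulated genes, class I antigen presentation and AHR targets had lower medians in ΔNLS and higher medians with erlotinib, while ERK output, actin, ribosome biogenesis and DNA replication genes had the more positive ΔNLS effect. Keratins, cornified envelope genes, integrins and laminins, and plasminogen system genes had negative medians in both effects. Amino acid response genes had positive medians in both. These signs were not particular to the lists named. Negative medians in both were also found for ERK output (-0.15 and -2.15), glycolysis (-0.10 and -0.89), and chemokines and cytokines (-0.25 and -0.93), among others. Genes raised by FOXO factors had positive medians in both (0.10 and 0.25), and lysosome genes had the signs of the interferon list (-0.19 and 0.12). The plots of list medians and of the direction of members called in both set these lists side by side.

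**Figure D2:**
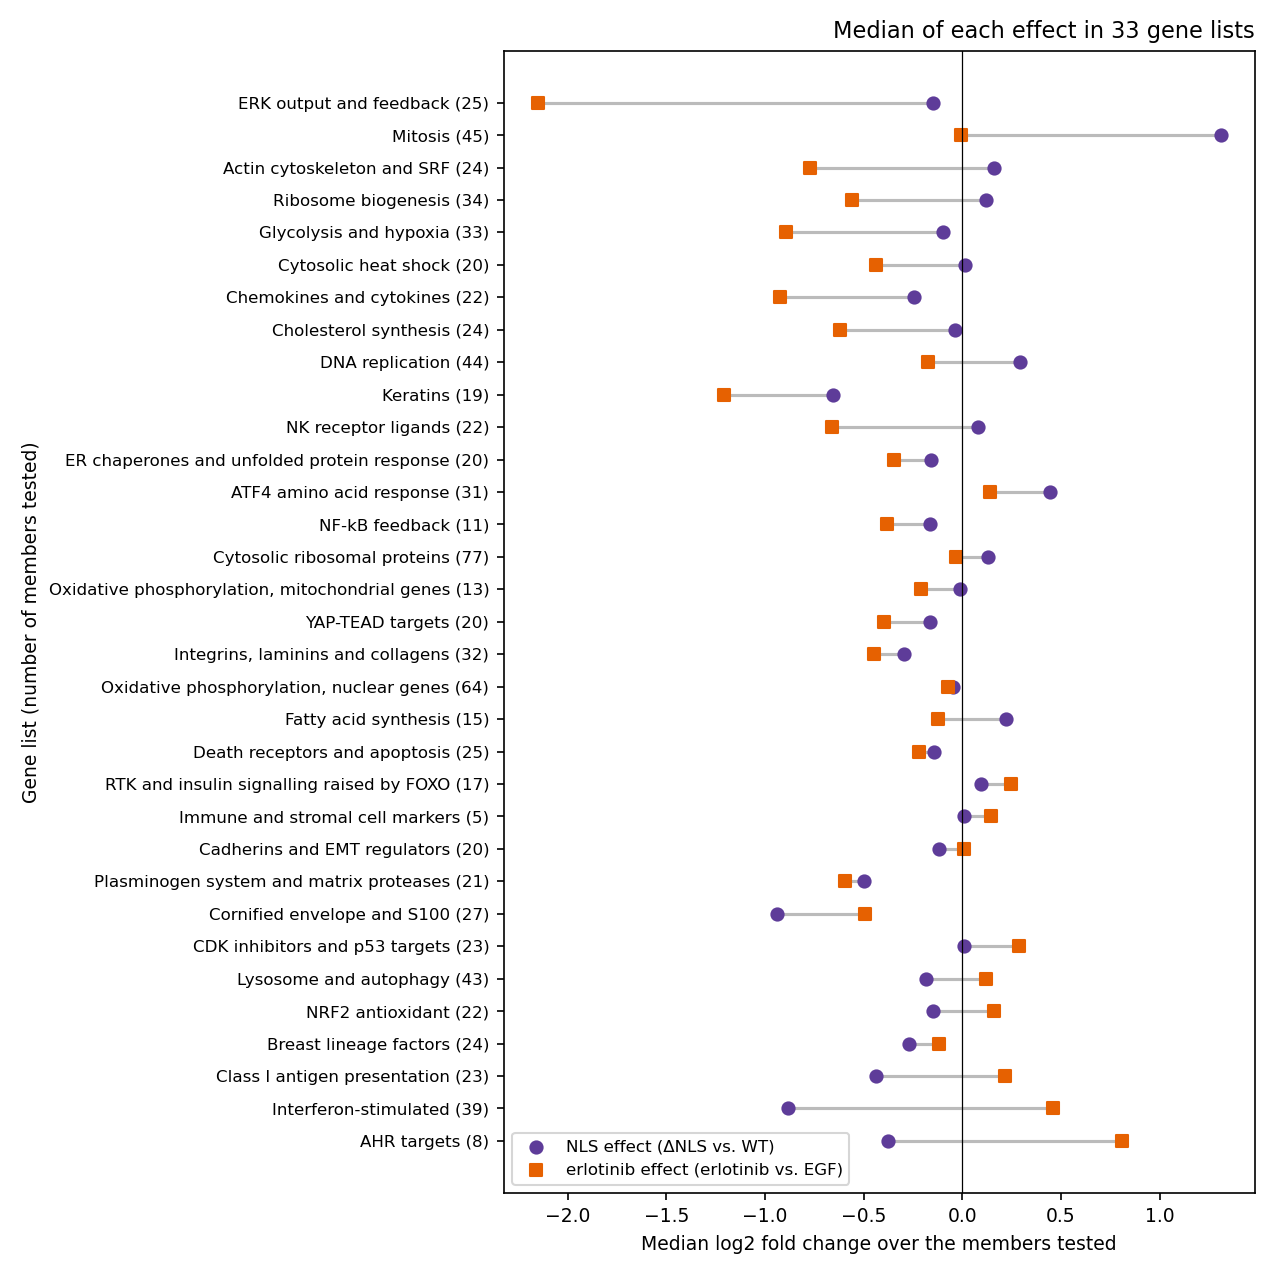
For each of 33 gene lists, the circle gives the median log2 fold change of the members tested in ΔNLS vs. WT and the square that in erlotinib vs. EGF, with lists ordered by the median interaction. The medians lie on opposite sides of 0 for the interferon-stimulated list (-0.88 and 0.46) and on the same side for keratins (-0.66 and -1.21).

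**Figure D3:**
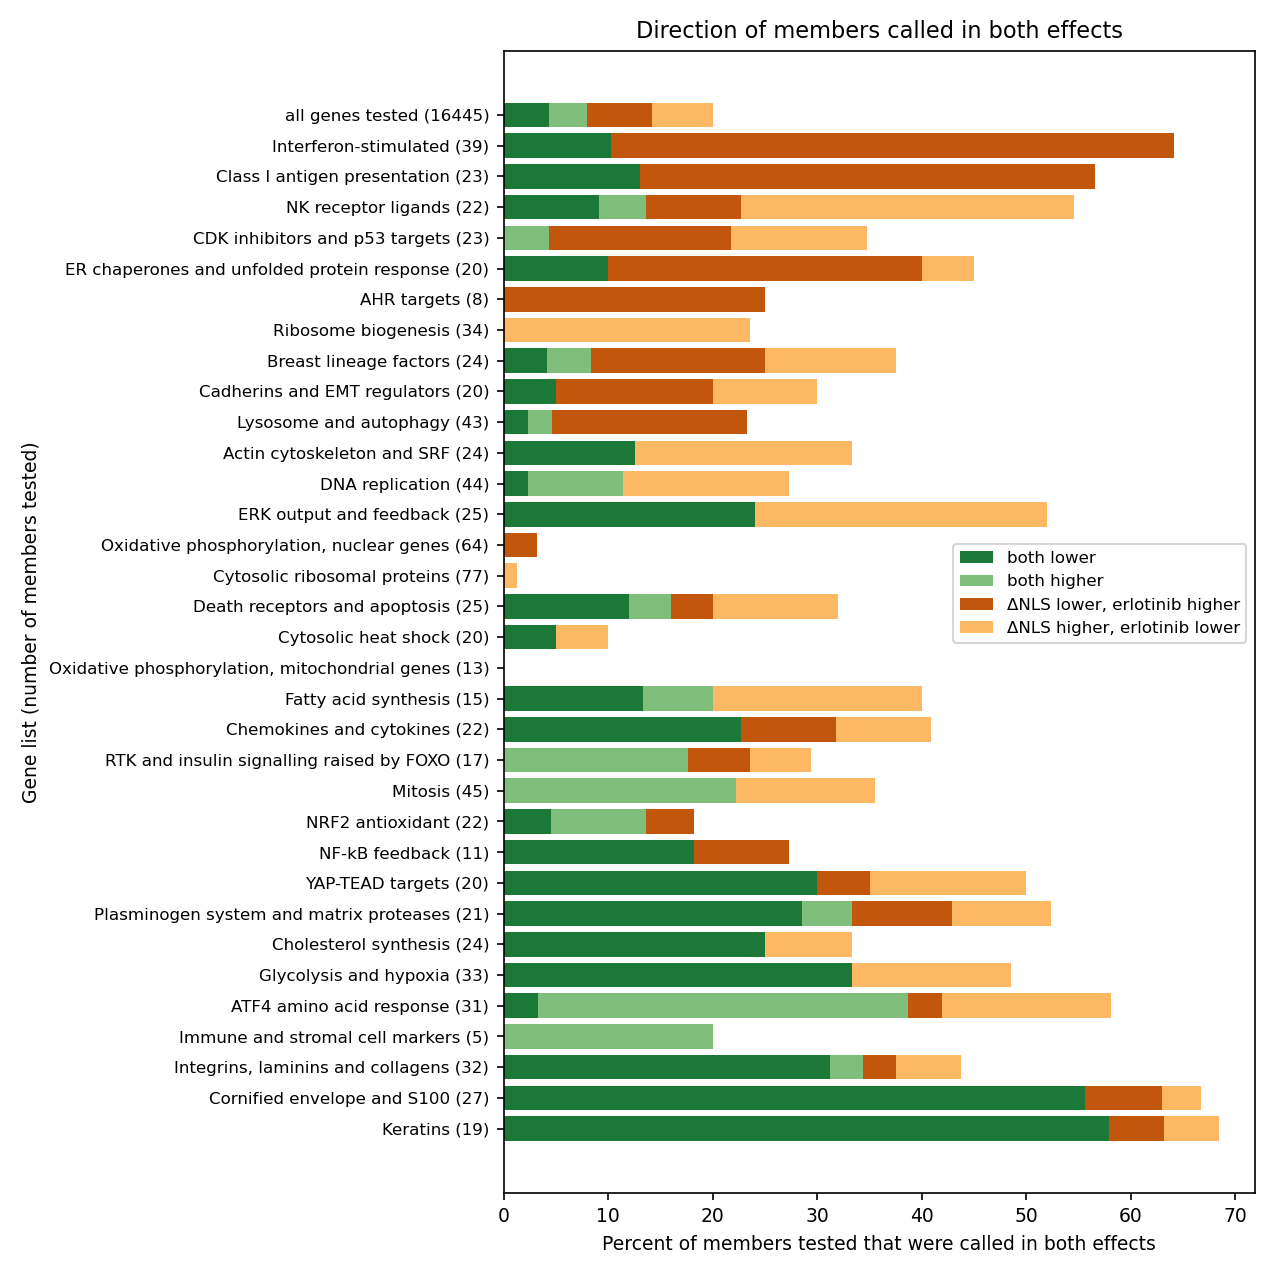
Bars give the percent of tested members called in both comparisons, divided by direction, with all 16445 genes in the top bar for reference. Interferon-stimulated genes are mostly lower in ΔNLS and higher with erlotinib (53.8% of members opposite), and keratins mostly lower in both (57.9% with the same sign).

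Genes of the interferon response moved oppositely. Of 39 interferon-stimulated genes tested, which encode antiviral effectors and sensors, 34 fell in ΔNLS vs. WT (17.6% of all genes did). With erlotinib 23 rose and 4 fell (24.7% and 23.2%), and 29 had a negative interaction (22.8%). Of the 39, 21 (53.8%, against 6.18% of all genes) fell in ΔNLS and rose with erlotinib. The list medians were -0.88 in ΔNLS and 0.46 with erlotinib, against 0.02 and 0.01 over all genes. IFIT1, which binds viral RNA that lacks the host cap, measured 3.55, 3.12 and 3.66 CPM in EGF, 5.62, 8.35 and 8.89 CPM with erlotinib, 13.7, 18.0 and 12.7 CPM in WT and 4.17, 3.93 and 4.28 CPM in ΔNLS. No library of erlotinib overlapped EGF and none of ΔNLS overlapped WT. Its effects were -1.84 (SE 0.165) and 1.14 (SE 0.178), and its interaction was -2.98 (SE 0.242, edgeR, adjusted p = 8.46e-09). GBP4, an interferon-induced GTPase, fell by 2.53 on the log2 scale in ΔNLS and rose by 1.79 with erlotinib. HERC6, an interferon-induced ligase, measured 5.59 to 6.92 CPM in EGF, 11.7 to 13.7 CPM with erlotinib, 20.3 to 23.9 CPM in WT and 8.4 to 9.73 CPM in ΔNLS, and RSAD2 (viperin) had effects of -1.02 and 1.28.

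The oligoadenylate synthetases did not follow this pattern. OAS1, OAS3 and OASL, which sense or respond to double-stranded RNA, and the exonuclease ISG20 fell in both comparisons. OAS1 measured 33.3, 40.2 and 35.0 CPM in EGF, 16.6, 15.6 and 15.8 CPM with erlotinib, 112, 130 and 120 CPM in WT and 60.5, 51.4 and 50.9 CPM in ΔNLS. Its effects of -1.15 and -1.17 gave an interaction of 0.02 (SE 0.130, adjusted p = 0.918). ISG15, a ubiquitin-like modifier, fell in ΔNLS (-0.88) with an erlotinib effect of -0.26 that was not called. The summed level of the list was 834 to 872 CPM in EGF and 974 to 1051 CPM with erlotinib, a small difference beside 1820 to 1986 CPM in WT and 1092 to 1133 CPM in ΔNLS.

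Interferon induces such genes through the interferon-stimulated response element. Its core, searched on either strand as TTTC, any 2 bases and TTTC again, was held by 26 of 42 RefSeq promoters of the list (61.9%, for 31 of 39 members matched) and by 2.83% of the 16921 promoters of all genes tested, a promoter being the 300 bases from 250 before to 50 after a start site. The core was held by 13 of the 19 opposite members with a promoter and by 2 of the 3 alike members with one (ISG20 and OAS3). It was also held by 7 of the 7 such members called in ΔNLS vs. WT alone. With only 3 alike members to compare, this cannot decide whether its presence sets opposite members apart from alike ones. The upstream stretches of IFIT1 and OAS1 (GRCh38.p14, plus strand, 150 bases ending just before the start site) are shown as an opposite and an alike member, with matches in capitals. IFIT1 (chr10:89392473-89392622) holds 2 matches, the nearer starting 103 bases before the start site, and OAS1 (chr12:112906812-112906961) holds none in this window, which says nothing of other forms of the element.
IFIT1: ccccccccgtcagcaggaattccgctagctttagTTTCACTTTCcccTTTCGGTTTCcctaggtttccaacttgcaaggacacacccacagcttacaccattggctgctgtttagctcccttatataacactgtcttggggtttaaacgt
OAS1: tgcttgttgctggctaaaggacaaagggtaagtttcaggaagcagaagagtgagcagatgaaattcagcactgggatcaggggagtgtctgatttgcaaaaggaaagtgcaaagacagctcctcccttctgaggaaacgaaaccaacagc

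Part of the class I antigen presentation genes also moved oppositely. These genes load peptides on HLA class I for T cells and for inhibitory receptors of NK cells. Of 23 genes tested, 18 fell in ΔNLS (17.6% of all genes did), and 10 rose and 4 fell with erlotinib (24.7% and 23.2%). Those that fell in ΔNLS and rose with erlotinib numbered 10 (43.5%, against 6.18% of all genes). The 10 that rose with erlotinib were 16 when scaled by library totals, or with the GC and length offsets. The summed level of the list was 6738 to 7093 CPM with erlotinib, inside the 6124 to 7236 CPM of EGF. It was 9998 to 11720 CPM in WT and 6695 to 7233 CPM in ΔNLS. B2M, the light chain of all class I molecules, measured 1363, 1734 and 1410 CPM in WT and 776, 779 and 779 CPM in ΔNLS, and 619, 752 and 601 CPM in EGF against 792, 903 and 882 CPM with erlotinib. Its interaction was -1.33 (SE 0.145, adjusted p = 4.15e-07), in libraries that did not overlap in either comparison. ERAP1, which trims peptides in the endoplasmic reticulum, had effects of -0.48 and 1.15, the immunoproteasome subunit PSMB9 of -0.62 and 0.82, and the transcription factor IRF1 of -0.67 and 0.67. HLA-B fell in ΔNLS (-0.98) with an erlotinib effect of 0.20 that was not called, and HLA reads are uncertain because near-identical genes could share them. TAP2, CALR and PDIA3 fell in both, and this count of 3 was 1 without WT replicate 1, 2 or 3 or ΔNLS replicate 2 or 3.

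Several ligands of NK cell receptors showed the reverse opposition. Of 22 ligands tested, 8 rose and 5 fell in ΔNLS (17.6% and 17.6% of all genes did), and 4 rose and 14 fell with erlotinib (24.7% and 23.2%), with medians of 0.08 and -0.66. Those that rose in ΔNLS and fell with erlotinib (5.83% of all genes) numbered 7: the NKG2D ligands MICA, MICB, ULBP2, ULBP3 and RAET1L, the DNAM-1 ligand PVR and the adhesion molecule ICAM1. The ΔNLS call of RAET1L was lost without WT replicate 1 or 3 or ΔNLS replicate 1 (adjusted p = 0.122, 0.0801 and 0.217). MICB measured 41.4, 36.2 and 41.9 CPM in EGF, 16.5, 16.2 and 14.5 CPM with erlotinib, 25.3, 19.7 and 25.4 CPM in WT and 40.4, 36.6 and 38.9 CPM in ΔNLS. ΔNLS thus stood at the level of EGF, above WT, while erlotinib lay below all other libraries (effects 0.72 and -1.34, interaction 2.06, SE 0.146, adjusted p = 1.51e-09). MICA had effects of 0.49 and -0.80 and ICAM1 of 0.31 and -1.30. ULBP1 was the exception among NKG2D ligands and rose in both (1.0 and 0.77, interaction 0.23, adjusted p = 0.467). The inhibitory ligand VTCN1 and LGALS9 fell in ΔNLS and rose with erlotinib, and CEACAM1 and CD47, both ligands that restrain immune cells, fell in both. The ΔNLS counts were less firm than those for erlotinib, with 5 higher without WT replicate 2 or ΔNLS replicate 1 or 3, and 3 lower without WT replicate 1 or 2 or ΔNLS replicate 1 or 3. RAET1L and ULBP2 are near-identical genes, so their reads are uncertain.

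Junction, mesenchymal and lineage genes had no common direction, though single members moved oppositely by large amounts. The 20 cadherins and EMT regulators tested had 5 opposite members (25%, against 12% of all genes), 3 lower in ΔNLS and higher with erlotinib and 2 the reverse. Of the 20, 35% were called in the interaction, against 46.0% of all genes. Their medians were -0.12 and 0.01, the second of which changed sign with the scaling. The genes described next were chosen after their values were seen. CLDN1, a tight junction protein, measured 28.3, 32.5 and 30.0 CPM in EGF, 73.5, 79.0 and 68.7 CPM with erlotinib, 92.4, 103 and 87.0 CPM in WT and 35.7, 36.7 and 38.7 CPM in ΔNLS. EGF and ΔNLS were thus the low groups and erlotinib and WT the high groups, with effects of -1.35 and 1.28 and an interaction of -2.63 (SE 0.123, adjusted p = 5.21e-12). CD24 (-0.87 and 0.95) and the epithelial cadherin CDH1 (-0.38 and 0.47) had the same signs. VIM, the mesenchymal intermediate filament vimentin, had the reverse pattern, with 39.4, 45.9 and 40.0 CPM in EGF, 12.1, 13.1 and 14 CPM with erlotinib, 20.7, 18.6 and 17.9 CPM in WT and 52.4, 47.1 and 41.1 CPM in ΔNLS. The matrix protein TNC, tenascin C, rose by 1.43 on the log2 scale in ΔNLS and had an erlotinib effect of -2.04. Among 24 breast lineage factors tested, 7 were opposite (29.2%, against 12% of all genes) and 2 alike (8.33%, against 7.96%), with medians of -0.27 and -0.12. Of the opposite ones 4 were lower in ΔNLS and 3 higher, so they had no common direction. The epithelial regulators EHF (-0.78 and 0.89), KLF5 (-0.87 and 0.45) and ELF3 (-0.24 and 0.47) were lower in ΔNLS and higher with erlotinib. BCL11A, a factor of the luminal progenitor and basal state, was higher in both (2.02 and 0.85). The epithelial keratin KRT18 was lower in both, with 1457 to 1926 CPM in EGF, 703 to 783 CPM with erlotinib, 2043 to 2369 CPM in WT and 1209 to 1479 CPM in ΔNLS.

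A minority of lysosomal genes fell in ΔNLS and rose with erlotinib. Of 43 lysosome and autophagy genes tested, 16 fell in ΔNLS (17.6% of all genes did), 16 rose with erlotinib (24.7% of all genes) and 8 did both (6.18% of all genes), among them the protease CTSL (-0.79 and 0.87) and the membrane protein LAMP2 (-0.73 and 0.34). CTSL measured 21.6, 22 and 21.2 CPM in EGF, 37.4, 41.2 and 39.9 CPM with erlotinib, 37.1, 41.1 and 36.7 CPM in WT and 22.8, 22.5 and 21.3 CPM in ΔNLS, so that EGF and ΔNLS were alike in level and erlotinib and WT were too. The count of 8 was 5 without EGF replicate 1 or 3. The 20 ER chaperone and unfolded protein response genes had negative medians in both effects (-0.16 and -0.35). In ΔNLS 8 fell (17.6% of all genes did), and with erlotinib 7 rose and 11 fell (24.7% and 23.2%). Their 7 opposite members (35%, against 12% of all genes) were 3 without WT replicate 2 or ΔNLS replicate 3, nearer that share. They were 4 without EGF replicate 1, erlotinib replicate 3, WT replicate 1 or 3 or ΔNLS replicate 1 or 2. XBP1, the transcription factor of the unfolded protein response, had effects of -0.56 and 0.85, while the chaperone HSP90B1 fell in both (-0.34 and -0.58) and the chaperone HYOU1 rose in ΔNLS and fell with erlotinib (0.40 and -0.42).

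**Figure D4:**
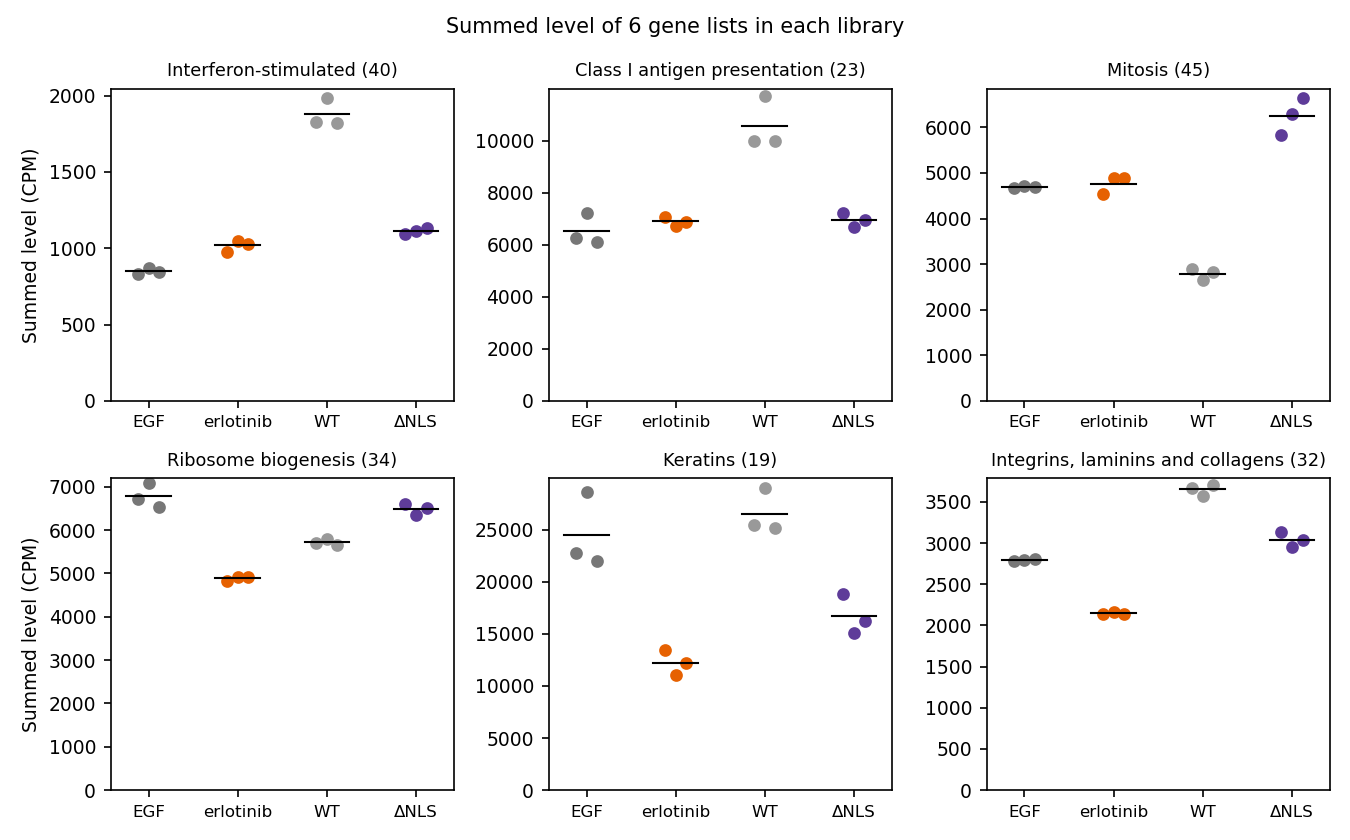
Points give the summed CPM of 6 gene lists in each of the 12 libraries, with a line at the group mean, and the number of genes summed stands beside each list's name. The interferon-stimulated list stands at 1820 to 1986 CPM in WT against 1092 to 1133 CPM in ΔNLS, and the mitosis list at 2641 to 2901 CPM in WT against 5832 to 6641 CPM in ΔNLS, while keratins are lower in erlotinib and in ΔNLS than in their controls.

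Mitosis genes rose together in ΔNLS without a common erlotinib effect. All 45 mitosis genes tested rose in ΔNLS vs. WT (17.6% of all genes did) and all 45 had a positive interaction (23.2% of all genes), with a median ΔNLS effect of 1.31 on the log2 scale. With erlotinib 10 rose (24.7% of all genes did), 6 fell (23.2%) and 29 were not called. The median effect was -0.01, which became 0.11 when scaled by library totals. The 10 that rose were 5 without EGF replicate 3 or erlotinib replicate 3 and 6 without EGF replicate 1 or erlotinib replicate 2, and the 6 that fell were 3 when scaled by library totals and 11 with the GC and length offsets. AURKB, a mitotic kinase, measured 52.2, 58.1 and 53.2 CPM in EGF, 59.1, 52.1 and 51.5 CPM with erlotinib, 27.9, 25.7 and 26.1 CPM in WT and 71.8, 67.1 and 74.7 CPM in ΔNLS. The 6 drug libraries were mixed together between the level of WT and that of ΔNLS, and the interaction was 1.43 (SE 0.117, adjusted p = 9.06e-09). The proliferation marker MKI67 had 106, 50.6 and 106 CPM in WT and 241, 278 and 282 CPM in ΔNLS, a rise of 1.61, with an erlotinib effect of -0.29 that was not called. TOP2A, which untangles chromosomes, rose in both (1.33 and 0.48), and INCENP, a centromere protein that holds AURKB, rose in ΔNLS and fell with erlotinib (1.38 and -0.50). The sum of the 45 genes was 4676 to 4717 CPM in EGF and 4528 to 4882 CPM with erlotinib, between WT and ΔNLS.

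Many DNA replication genes rose in ΔNLS as well. Of 44 tested, 25 rose in ΔNLS (17.6% of all genes did), 18 fell with erlotinib (23.2%) and 35 had a positive interaction (23.2%). The 18 were 11 when scaled by library totals. RRM2, which makes deoxynucleotides, measured 339, 366 and 352 CPM in EGF, 226, 230 and 237 CPM with erlotinib, 436, 424 and 432 CPM in WT and 841, 824 and 843 CPM in ΔNLS (effects 0.96 and -0.61). ORC6, of the origin recognition complex, had effects of 0.96 and -0.74, and CDC6, which loads the replicative helicase, of 0.27 and -0.97. TK1, a thymidine kinase, rose in both (1.29 and 0.44). MCM6, a helicase subunit, was the member that fell in ΔNLS (-0.29), a call lost without ΔNLS replicate 3, and it fell with erlotinib too (-0.72). Of the 44, 7 were called oppositely, near the 12% of all genes, and 14 were with the GC and length offsets.

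Promoters of the 2 cell cycle lists held different motifs. The cell cycle genes homology region, searched as TTTGAA, was in 31 of 51 mitosis promoters (60.8%) and 2 of 47 DNA replication promoters (4.26%), against 10.7% of all promoters. CCAAT was in 68.6% and 59.6%, against 34.4%, and the E2F site TTTCGCGC, which can share its first letters with the interferon element, was in 3.92% and 10.6%, against 0.810%. The 150 bases before the start sites of CCNB2 (chr15:59104996-59105145, plus strand), a mitotic cyclin, and CDC20 (chr1:43358831-43358980, plus strand), an activator of the anaphase-promoting complex, are given as mitosis genes that rose in ΔNLS (1.07 and 1.34) with small erlotinib effects (0.20, called, and -0.07, not called). The capitals mark TTTGAA, which starts 29 and 65 bases before the start site.
CCNB2: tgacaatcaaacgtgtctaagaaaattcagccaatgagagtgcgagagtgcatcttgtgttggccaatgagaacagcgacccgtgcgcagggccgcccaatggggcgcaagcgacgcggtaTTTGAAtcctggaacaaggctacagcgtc
CDC20: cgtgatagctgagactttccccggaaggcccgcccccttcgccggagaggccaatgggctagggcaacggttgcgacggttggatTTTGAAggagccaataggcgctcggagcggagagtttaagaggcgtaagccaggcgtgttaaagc

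Inhibitors of the cell cycle showed no shared direction. Of 23 CDK inhibitors and p53 targets tested, 7 were called oppositely (12% of all genes were) and CDKN2C was called alike (7.96% of all genes), with rises of 1.02 and 0.73. This alike count of 1 was 3 without erlotinib replicate 1 and 2 without EGF replicate 3 or erlotinib replicate 2. CDKN2B, which inhibits CDK4 and CDK6, fell in ΔNLS and rose with erlotinib (-0.90 and 0.92). CDKN1A, encoding p21, had the reverse signs (0.43 and -0.24), and CDKN1B, encoding p27, rose with erlotinib (0.41) without a called ΔNLS effect (0.05).

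Keratin genes, of simple as well as squamous epithelia, mostly fell in both comparisons. Of 19 keratins tested, 13 fell in ΔNLS (17.6% of all genes did) and 15 with erlotinib (23.2%), and 11 fell in both (57.9%, against 4.29% of all genes). The size of the change differed for most, with 12 positive and 3 negative interactions (78.9% of members, against 46.0% of all genes). KRT13 measured 12.1, 21.0 and 12.1 CPM in EGF, 2.18, 1.66 and 3.19 CPM with erlotinib, 207, 297 and 225 CPM in WT and 36.2, 24.4 and 29.7 CPM in ΔNLS. WT and EGF thus differed by more than either effect, while the effects were alike (-3.01 and -2.67, interaction -0.34, SE 0.400, adjusted p = 0.521). KRT8, a keratin of simple epithelia, fell by 0.73 and by 1.21 on the log2 scale. KRT6A, a keratin of activated epidermis, fell further with erlotinib (-4.38) than in ΔNLS (-1.86, interaction 2.52), though reads of KRT6A, KRT6B and KRT6C are uncertain because the genes are near-identical. KRT75 rose in ΔNLS and fell with erlotinib (1.22 and -3.58), and KRT16 fell in ΔNLS and rose with erlotinib (-1.15 and 0.49).

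The cornified envelope and S100 genes, which build and signal in the squamous barrier, fell alike as well. Of 27 tested, 22 fell in ΔNLS (17.6% of all genes did) and 18 with erlotinib (23.2%), and 15 fell in both (55.6%, against 4.29%). The interaction was called for 15 members (55.6%, against 46.0% of all genes), 5 positive and 10 negative. The 10 were 6 without EGF replicate 3 or erlotinib replicate 1. SPRR1B, a precursor of the envelope, measured 4.97, 4.67 and 5.13 CPM in EGF, 0.688, 0.831 and 0.753 CPM with erlotinib, 45.2, 50.2 and 47.2 CPM in WT and 19.6, 15.2 and 14.3 CPM in ΔNLS. IVL, involucrin, had effects of -1.47 and -0.65, and the kallikrein KLK6 of -1.89 and -1.53. The exceptions were TGM1, a transglutaminase that cross-links the envelope (-1.40 and 0.76), SLPI (-0.53 and 0.60) and PI3 (0.53 and -0.48).

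Part of the adhesion and plasminogen system genes fell in both. Of 32 integrins, laminins and collagens tested, 16 fell in ΔNLS (17.6% of all genes did), 17 fell with erlotinib (23.2%) and 10 fell in both (4.29%). Among laminin chains, LAMA3 fell in ΔNLS (-1.16) and had an erlotinib effect of -0.21 that was not called, and LAMB3 fell in both (-0.92 and -0.86). LAMB3 measured 82.7, 90.2 and 85.7 CPM in EGF, 53.2, 43.0 and 45.8 CPM with erlotinib, 194, 200 and 188 CPM in WT and 113, 93.6 and 100 CPM in ΔNLS, with an interaction of -0.06 (SE 0.124, adjusted p = 0.723). Of 21 genes of the plasminogen system and matrix proteases, 12 fell in ΔNLS, 11 fell with erlotinib and 6 fell in both. The 2 effects differed for most of these 21, with 8 positive and 10 negative interactions (85.7% of members, against 46.0% of all genes). F3, tissue factor, the receptor that starts coagulation, measured 105, 96.3 and 110 CPM in EGF, 9.01, 12.3 and 9.68 CPM with erlotinib, 129, 99.9 and 143 CPM in WT and 40.8, 43.6 and 43.3 CPM in ΔNLS. Its fall was larger with erlotinib (-3.33) than in ΔNLS (-1.54, interaction 1.79, SE 0.169, adjusted p = 6.18e-08). The tissue plasminogen activator PLAT fell by 2.10 and by 3.31 on the log2 scale, whereas the urokinase PLAU fell in ΔNLS and rose with erlotinib (-0.50 and 1.86). MMP7, a protease of epithelial cells, rose in ΔNLS and fell with erlotinib (1.29 and -1.46).

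Genes of the ATF4 amino acid response, which supply and activate amino acids under stress, often rose in both. Of 31 tested, 25 rose in ΔNLS (17.6% of all genes did), and 13 rose and 6 fell with erlotinib (24.7% and 23.2%). Of these, 11 rose in both (35.5%, against 3.67% of all genes). ALDH1L2, a mitochondrial folate enzyme, measured 53.7, 38.0 and 53.9 CPM in EGF, 77.7, 97.0 and 86.5 CPM with erlotinib, 19.2, 16.2 and 21.4 CPM in WT and 33.7, 38.8 and 37.5 CPM in ΔNLS. Its effects of 0.95 and 0.84 gave an interaction of 0.11 (SE 0.178, adjusted p = 0.646). SHMT2, a serine hydroxymethyltransferase (0.74 and 0.48), and SLC7A5, a carrier of large neutral amino acids (0.98 and 0.44), rose in both too. STC2 rose in ΔNLS and fell with erlotinib (1.46 and -0.85).

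Among protein-coding genes averaging 1 CPM or more over the 12 libraries whose groups did not overlap in either effect, the 6 with the largest smaller effect were taken in each quadrant. Higher in both were the transporter ATP13A5 (1.93 and 2.52), the potassium channel KCNJ5 (1.92 and 2.10), POU2AF1 (1.79 and 3.45), PHKG1 (1.62 and 3.06), SNCAIP (2.95 and 1.61) and LPO (1.53 and 1.55), of which only ATP13A5 had a group mean above 6 CPM. Lower in both were KRT13, the fibrinogen chain FGB (-3.95 and -2.55), the protease PAPPA (-2.53 and -2.86), the receptor IL1RL1 (-2.32 and -6.05), the transglutaminase TGM2 (-2.26 and -2.59) and SCEL, sciellin of the cornified envelope (-2.36 and -2.23). SCEL measured 11.7, 12.3 and 12.5 CPM in EGF, 1.82, 2.87 and 3.19 CPM with erlotinib, 117, 126 and 132 CPM in WT and 23.8, 25.9 and 23.0 CPM in ΔNLS. Beside TNC and VIM, the genes higher in ΔNLS and lower with erlotinib were BRINP2 (3.27 and -1.91), ASB2 (1.82 and -2.81), the neurofilament NEFH (1.80 and -1.42) and the integrin ITGAL (1.38 and -1.93). Beside GBP4, those with the reverse signs were the zinc transporter SLC30A2 (-2.42 and 3.92), the transcription factor CREB3L1 (-3.41 and 2.42), ATP10B (-2.37 and 4.18), BMP3 (-1.94 and 1.93) and SMIM5 (-1.93 and 2.11). BRINP2 measured 6.18, 6.69 and 7.70 CPM in EGF, 2.0, 1.83 and 1.61 CPM with erlotinib, 0.438, 0.614 and 0.759 CPM in WT and 6.33, 5.56 and 5.95 CPM in ΔNLS, again with ΔNLS at the level of EGF.

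**Figure D5:**
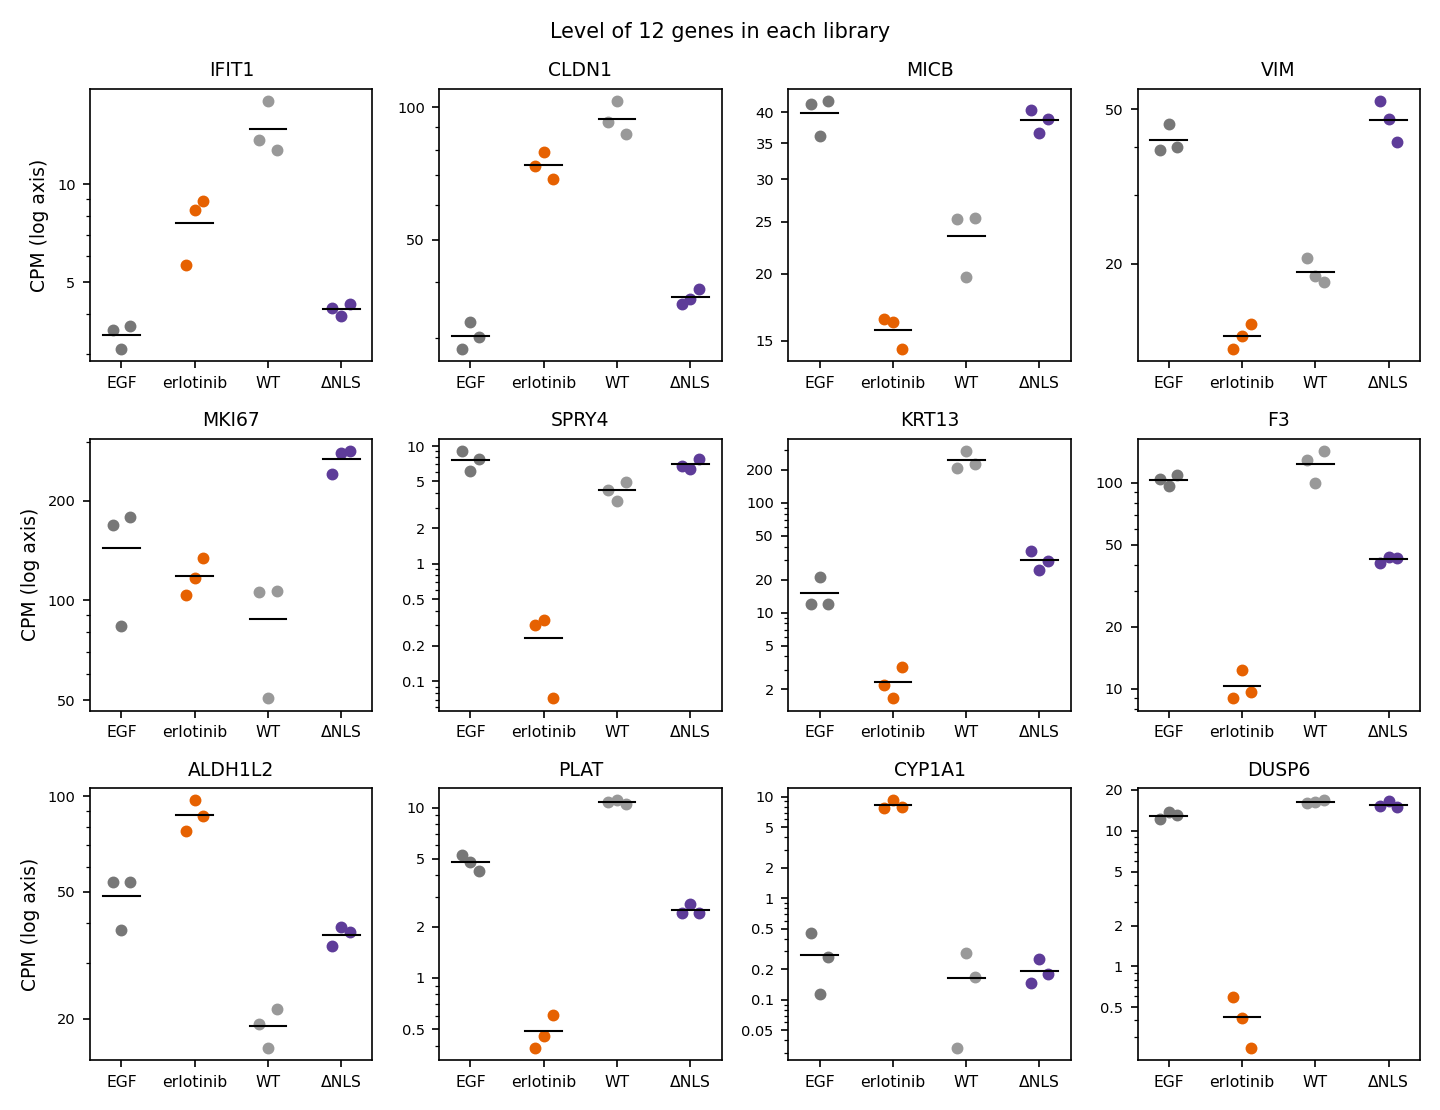
Points give the CPM (log axis) of 12 genes in each library, with a line at the group mean. IFIT1, CLDN1, MICB, VIM and SPRY4 move in opposite directions in ΔNLS vs. WT and erlotinib vs. EGF, KRT13, F3, ALDH1L2 and PLAT move the same way, MKI67 is called in ΔNLS vs. WT alone, and CYP1A1 and DUSP6 in erlotinib vs. EGF alone.

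The output of the ERK pathway fell with erlotinib and was mixed in ΔNLS. Of 25 genes of ERK output and feedback, 22 fell with erlotinib (23.2% of all genes did), with a median of -2.15. In ΔNLS 7 rose and 7 fell (17.6% and 17.6% of all genes), with a median of -0.15 and 17 of 25 members below 0. A positive interaction was called for 20 (23.2% of all genes). The summed level was 1571 to 1705 CPM in EGF, 509 to 536 CPM with erlotinib, 1310 to 1446 CPM in WT and 1040 to 1104 CPM in ΔNLS, with no overlap in either comparison. DUSP6, a phosphatase of ERK, measured 12.2, 13.7 and 13.0 CPM in EGF and 0.598, 0.415 and 0.251 CPM with erlotinib, but 15.9, 16.2 and 16.7 CPM in WT and 15.2, 16.4 and 14.8 CPM in ΔNLS. The lines overlapped each other and lay above all EGF libraries, with effects of -0.07 (SE 0.112, adjusted p = 0.654) and -4.89 and an interaction of 4.82 (SE 0.220, adjusted p = 3.89e-12). The feedback inhibitor SPRY4 (0.73 and -5.00), the AP-1 subunit FOSL1 (0.89 and -4.41) and the EGFR ligand HBEGF (1.08 and -1.93) rose in ΔNLS and fell with erlotinib. DUSP4 (-0.81 and -3.12), cyclin D1 (CCND1, -0.92 and -2.42) and the membrane protein EMP1 (-1.77 and -0.93) fell in both, and EMP1 was the member with a negative interaction (-0.84). In cells with PI3K-AKT signalling removed, FOXO factors raise receptors and adaptors, and of 17 such genes 8 rose with erlotinib (24.7% of all genes did) and 5 rose in ΔNLS (17.6%), with small medians of 0.25 and 0.10. INSR, PIK3R1 and CCNG2 rose in both (3.67% of all genes). PIK3IP1, an inhibitor of PI3K, fell in ΔNLS and rose with erlotinib (-0.80 and 1.62), and the adaptor IRS2 did the reverse (0.49 and -0.59).

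Glycolysis, ribosome biogenesis, cholesterol synthesis and heat shock genes mostly fell with erlotinib, with smaller medians in ΔNLS. Fatty acid synthesis genes had the larger median in ΔNLS. Of 33 glycolysis and hypoxia genes tested, 32 fell with erlotinib (23.2% of all genes did). In ΔNLS 11 fell and 5 rose (17.6% and 17.6% of all genes). The medians were -0.89 with erlotinib and -0.10 in ΔNLS. LDHA, lactate dehydrogenase, fell in both (-0.78 in ΔNLS and -1.30 with erlotinib), as did EGLN3 (-1.12 and -1.16), and the phosphofructokinase PFKP rose in ΔNLS and fell with erlotinib (0.51 and -1.76). The 5 that rose in ΔNLS, near the share of all genes, were 3 without WT replicate 2. Of 34 ribosome biogenesis genes, 29 fell with erlotinib (23.2% of all genes did) and 9 rose in ΔNLS (17.6%). Those that rose in ΔNLS and fell with erlotinib numbered 8 (23.5%, against 5.83% of all genes), or 5 without ΔNLS replicate 1. NOP56, of the snoRNA machinery, measured 186, 159 and 184 CPM in EGF, 98.1, 94.9 and 102 CPM with erlotinib, 134, 124 and 143 CPM in WT and 186, 184 and 194 CPM in ΔNLS. MYC, a regulator of this programme, had an erlotinib effect of -0.84 and a ΔNLS effect of 0.12 that was not called. Of 24 cholesterol synthesis genes, 20 fell with erlotinib (23.2% of all genes did) and 6 fell in ΔNLS (17.6%). All 6 were within the 20 (4.29% of all genes fell in both), though these 6 were 3 without WT replicate 2 or ΔNLS replicate 3. HMGCS1, an early enzyme of the pathway, fell in both (-0.43 and -1.45). Cytosolic heat shock genes had 14 of 20 lower with erlotinib (23.2% of all genes were), with a median of -0.44, and a ΔNLS median of 0.02. Among 15 fatty acid synthesis genes, 7 rose in ΔNLS (17.6% of all genes did) and 5 fell with erlotinib (23.2%), with medians of 0.22 and -0.12. ELOVL6, a fatty acid elongase, fell in both (-2.98 and -0.74).

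Cytoskeletal genes followed a like pattern. Of 24 actin cytoskeleton and SRF genes, 20 fell with erlotinib (23.2% of all genes did) and 19 had a positive interaction (23.2%). The medians were 0.16 in ΔNLS and -0.77 with erlotinib. TPM2, a tropomyosin, measured 37.1, 31.8 and 35.7 CPM in EGF, 14.7, 13.2 and 15.9 CPM with erlotinib, 9.68, 7.27 and 9.73 CPM in WT and 26.3, 23.0 and 24.9 CPM in ΔNLS. It rose by 1.47 in ΔNLS and had an erlotinib effect of -1.25, while vinculin (VCL) fell in both (-0.46 and -0.67). Of 20 YAP-TEAD targets, 9 fell in ΔNLS (17.6% of all genes did), 11 fell with erlotinib (23.2%) and 6 fell in both (4.29%), among them NT5E (-0.81 and -0.61). CCN2 rose in ΔNLS and fell with erlotinib (0.64 and -1.57).

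Targets of the aryl hydrocarbon receptor (AHR), a sensor of small aromatic molecules, rose with erlotinib and had no rise in ΔNLS. Of 8 tested, 5 rose with erlotinib (24.7% of all genes did) and 4 fell in ΔNLS (17.6%), and 7 had a negative interaction (22.8%). CYP1A1, a cytochrome P450 and the classic target, measured 0.460, 0.114 and 0.264 CPM in EGF, 7.75, 9.22 and 7.85 CPM with erlotinib, 0.0337, 0.291 and 0.169 CPM in WT and 0.148, 0.251 and 0.181 CPM in ΔNLS. The erlotinib libraries lay above all others (4.89, SE 0.312, adjusted p = 2.10e-10) and the lines overlapped (0.21, SE 0.564, adjusted p = 0.804). CYP1B1 rose by 2.13 with erlotinib, with a ΔNLS effect of 0.04, and ALDH3A1 fell in ΔNLS and rose with erlotinib (-1.28 and 4.49). The core of the xenobiotic response element, GCGTG, was in 6 of 10 AHR target promoters and 47.4% of all promoters. The 150 bases before the CYP1A1 start site (chr15:74725529-74725678, minus strand, GRCh38.p14) hold this short core 57 bases before the start, in capitals. Whether AHR binds there was not tested.
CYP1A1: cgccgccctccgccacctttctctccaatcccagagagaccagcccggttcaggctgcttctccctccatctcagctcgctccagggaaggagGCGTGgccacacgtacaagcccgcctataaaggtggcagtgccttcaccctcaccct

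Antioxidant genes under NRF2 rose in part with erlotinib (10 of 22, against 24.7% of all genes), among them the heme oxygenase HMOX1 (1.02, with a ΔNLS effect of -0.17). In ΔNLS 2 rose, fewer than the 17.6% of all genes, or 1 without WT replicate 1 or 3 or ΔNLS replicate 2 or 3. SLC7A11, the cystine importer, rose in both (0.79 and 0.90).

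Cytokine and death receptor genes were mixed. Of 22 chemokines and cytokines tested, 14 fell with erlotinib (23.2% of all genes did), 9 fell in ΔNLS (17.6%) and 5 fell in both (4.29%), including the chemokine CCL22 (-1.33 in ΔNLS and -2.21 with erlotinib). CXCL8, interleukin 8, measured 21.1, 22 and 19.5 CPM in EGF and 1.17, 1.75 and 1.04 CPM with erlotinib, and 6.81, 7.07 and 7.45 CPM in WT and 5.71, 6.79 and 6.82 CPM in ΔNLS. It fell with erlotinib (-4.0) and was not called in ΔNLS (-0.15, SE 0.132, adjusted p = 0.417). TNFAIP3, a feedback inhibitor of NF-kB, fell in both (-0.88 and -1.46), as did the inhibitor of apoptosis BIRC3. Of 11 NF-kB feedback genes, 4 fell in ΔNLS (17.6% of all genes did) and 5 fell with erlotinib (23.2%). The 4 were 2 without ΔNLS replicate 2 or 3 or scaled by library totals, and 7 with the GC and length offsets. TNFSF10, encoding TRAIL, an interferon-inducible death ligand, fell in ΔNLS and rose with erlotinib (-0.87 and 1.44), and its receptor TNFRSF10B did the reverse (0.41 and -0.78). BMF, a pro-apoptotic member of the BCL2 family, rose in both (0.62 and 1.85).

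Genes called in a single comparison together with the interaction were 1654 for ΔNLS (10.1% of genes tested) and 3144 for erlotinib (19.1%). With an erlotinib effect under 0.2 in size, the largest ΔNLS changes were rises of the collagen COL26A1 (2.74), the mitochondrial carrier SLC25A30 (2.56) and the PI3K subunit PIK3CD (2.24), and falls of MUCL1 (-3.73), GULP1 (-2.68) and the glutamate decarboxylase GAD1 (-2.20). MUCL1, a small breast mucin, measured 9.04, 10.2 and 8.74 CPM in WT and 0.650, 0.629 and 0.835 CPM in ΔNLS, and at most 0.394 CPM in the drug libraries. With a ΔNLS effect under 0.2 in size, the largest erlotinib changes were rises of SLC6A20 (2.57), angiotensinogen (AGT, 2.54) and ALPG (2.52), and falls of DUSP6, CXCL8 and the prostaglandin transporter SLCO2A1 (-3.23).

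Among the same kind of genes, the 6 largest interactions of each sign were taken. The condition that groups do not overlap leaves out genes such as DUSP6 (interaction 4.82) and CYP1A1 (-4.68), which were not called in ΔNLS vs. WT, so nothing is read from both effects of the chosen genes being called. On the positive side were SPRY4 (5.73), FOSL1 (5.30), BRINP2 (5.19), the decoy receptor IL1R2 (4.93), KRT75 (4.81) and ASB2 (4.64), and on the negative side ATP10B (-6.55), SLC30A2 (-6.34), CREB3L1 (-5.83), ALDH3A1 (-5.77), GPR12 (-4.43) and SLC39A2 (-4.40). The ΔNLS effect of IL1R2 (0.71) lost its call when any library of the lines other than WT replicate 2 was left out, with adjusted p between 0.0708 and 0.173.

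Ribosomal protein and oxidative phosphorylation genes had small effects, whose calls turned on the processing. Of 77 cytosolic ribosomal protein genes 63 were called in neither, with medians of 0.13 in ΔNLS, where 71 lay above 0, and -0.03 with erlotinib. The 8 that rose in ΔNLS were 32 when scaled by library totals, 30 with the GC and length offsets, 14 without WT replicate 2 or EGF replicate 2, 13 without erlotinib replicate 1 and 2 without ΔNLS replicate 3. Their 15 interaction calls were 28 without erlotinib replicate 1, 9 without erlotinib replicate 3 or WT replicate 3 and 6 without ΔNLS replicate 3. Of 64 nuclear genes of oxidative phosphorylation 43 were called in neither (-0.05 and -0.07). Of the 13 mitochondrial genes of oxidative phosphorylation, MT-ND6 was called lower with erlotinib (-0.38). This count of 1 was 5 without EGF or erlotinib replicate 2, 2 without WT replicate 2 and 0 without EGF or erlotinib replicate 3 or with the replicate block, and interaction calls went from 0 to 2 without EGF or erlotinib replicate 2. Apart from that of ribosomal proteins in ΔNLS, the medians named here changed sign when scaled by library totals, and an effect that was not called is not shown to be absent.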

How the data were processed

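RNA from MDA-MB-468 cells was sequenced as read pairs. The deposited counts are raw counts per Ensembl gene that the authors made by trimming with TrimGalore, aligning to GRCh38 (hg38 in the submitters' processing notes, which also name DESeq2) with STAR and counting without regard to strand with featureCounts. Overlapping genes and near-identical families therefore share reads, and the annotation release is not given in the sources used here. Groups were taken from the labels, and the 3 cSNX libraries entered only an alternative fit.

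The 12 libraries were fitted together in edgeR 4.0.16 (R 4.3.3) with group means, filterByExpr by group, TMM scaling and robust quasi-likelihood dispersions. Both effects and the interaction were tested as contrasts with 8 residual degrees of freedom, and a gene was called at a Benjamini-Hochberg adjusted p under 0.05 over all 16445 genes. Log2 changes are given with standard errors derived from the test statistic. CPM are descriptive, and baseline means used log2 of CPM plus 0.5. The script was tested on simulated data.

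Members and the 33 gene lists were chosen with earlier results of these data known. Named genes were the ERBB receptors, the 6 protein-coding genes per quadrant, the 3 per direction called in 1 effect with under 0.2 in the other, the 6 largest interactions per sign, and members of each list with the largest interaction or smaller effect, up to 4 a list or enough to account for counts of 5 or fewer. Further list members named for their known role were chosen after their values were seen. Promoters came from RefSeq (GRCh38.p14), 11757 of the tested genes being matched. Alternatives were other scalings, DESeq2 1.42.0, other filters, all 15 libraries, each experiment alone, a replicate block, a stricter threshold, GC and length offsets added later, and each library left out. Library totals of 22915676 to 35900649 counts set the precision, which is poor for genes under 1 CPM. A few list members are counted but not reported here by name.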

Additional observations from a re-analysis of the deposited data

How the results depend on the processing

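The 5 counts of called genes stayed within 1.5 times their value under DESeq2's size factors, library totals, DESeq2's test, both other filters, all 15 libraries, the replicate block, and the GC and length offsets that were chosen after seeing the data, and so did the 4 counts other than the interaction with each experiment fitted alone. At an adjusted p under 0.01, edgeR called 3854 genes in ΔNLS vs. WT, 730 alike and 1070 opposite. When each library was left out in turn, ΔNLS calls ranged from 4589 to 6299, erlotinib calls from 6788 to 8109, interaction calls from 6881 to 7846, alike genes from 1008 to 1320 and opposite genes from 1529 to 2233. Replicate numbers did not pair libraries, with correlations of deviations between -0.10 and 0.10, and the fit with the replicate block gave 5337, 7393, 7104, 1140 and 1817 genes for the same 5 counts. Of 8691 refits of named gene results, 8517 kept their direction and side of the threshold, 174 lost the call and 0 reversed. Most named genes were picked from these data for large effects, and refits reuse most libraries, so few reversals were possible. The filter of 10 counts in every library left 319 of the 405 results to refit. Depth limits genes such as KCNJ5 and CYP1A1, whose libraries hold few counts in the lower groups.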
